A study of Danio rerio with 2 samples.

Results

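The endothelial cells of the zebrafish pituitary were taken as droplet barcodes that held at least 1 unique molecular identifier (UMI, 1 captured RNA molecule) in each of 2 or more of 8 endothelial genes, namely kdrl, cdh5, plvapb, plvapa, flt1, egfl7, etsrp and aqp8a.1. A barcode also needed at least 200 detected genes and at most 20% of its UMIs from mitochondrial genes. Of 8629 barcodes that passed these last 2 filters in 2 libraries, 324 met the rule and are called endothelial barcodes here. They were selected on their UMIs in these 8 genes, so the levels of these genes are given as a description. The mutant library came from pituitaries of male cck1-/-;cck2-/- zebrafish (CCK1/2-KO), which lack both cholecystokinin ligands, and the other library from wild-type (WT) males. All fish were 6 months old and no other treatment was stated, and 30 fish were used per group. Each group gave 1 library, so no test across genotypes was possible. Every interval below is exact, at 95%, and covers the error of counting molecules alone, so variation from fish to fish or library to library is not in it.

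Pituitary hormones enter the blood through capillaries that run between the endocrine cells. Such capillaries are fenestrated in vertebrates, with pores closed by diaphragms of the plasmalemma vesicle associated protein (the product of plvapa and plvapb in zebrafish), whereas brain capillaries form a barrier with tight junctions and dedicated transporters. Vascular endothelial growth factor (VEGF) from neighboring cells acts through receptors such as Kdrl to maintain these vessels, and Notch, Tie and BMP receptors shape arteries, veins and capillaries.

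The mutant library held 150 endothelial barcodes among 3559 kept barcodes, a share of 4.21% (3.58% to 4.93%). The WT library held 174 among 5070, a share of 3.43% (2.95% to 3.97%). These intervals overlapped. With at least 3 of the 8 genes the shares were 3.60% (3.01% to 4.26%) in the mutant and 2.49% (2.07% to 2.95%) in WT, and those intervals did not overlap. In every other setting tried the intervals overlapped, among them at least 500 detected genes and barcodes drawn down to 1000 UMIs each. The kept barcodes themselves differed in make-up. A class set by red blood genes held 1122 of the 3559 mutant and 2690 of the 5070 WT kept barcodes. All these shares depend on that content, and its part in the order of the libraries was not tested. The share differed between depths. From 500 to under 1000 UMIs it was 0.499% (0.229% to 0.946%) in the mutant and 0.760% (0.471% to 1.16%) in WT. From 1000 to under 2000 UMIs it was 5.75% (3.85% to 8.20%) in the mutant and 5.16% (3.40% to 7.47%) in WT. From 2000 to under 5000 UMIs it was 6.10% (3.98% to 8.87%) in the mutant and 8.97% (6.45% to 12.1%) in WT. At 5000 UMIs or more it was 10.2% (8.29% to 12.5%) in the mutant and 6.43% (5.19% to 7.86%) in WT. The intervals were apart in this deepest bin alone, so a change of order between depths was not resolved. Endothelial barcodes were deeper than the rest, with medians of 6797.5 UMIs in the mutant and 5118.5 in WT, against 937 and 849 UMIs in all other kept barcodes of the mutant and WT libraries. Just outside the rule lay 217 mutant and 260 WT barcodes with UMIs in exactly 1 of the 8 genes, with a median of 1 UMI of these genes each. Just inside lay 22 mutant and 48 WT barcodes with exactly 2 genes, with medians of 3.5 and 2.5 UMIs. All 8 genes were seen in 15 mutant and 12 WT barcodes, with medians of 97 and 78 UMIs of these genes. Any of 6 endothelial genes outside the rule (tie1, fgd5a, rasip1, podxl, ptprb and sox7) was seen in 39 of the 217 mutant and 45 of the 260 WT barcodes just outside, and in 17 of the 22 mutant and 29 of the 48 WT barcodes just inside. The whole libraries held a median of 941 UMIs per barcode in the mutant and 864 in WT, with 15910570 UMIs in 3755 mutant barcodes and 22358017 UMIs in 5236 WT barcodes. The libraries shared 11 barcode sequences, and none of these barcodes was endothelial.

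**Figure D1:**
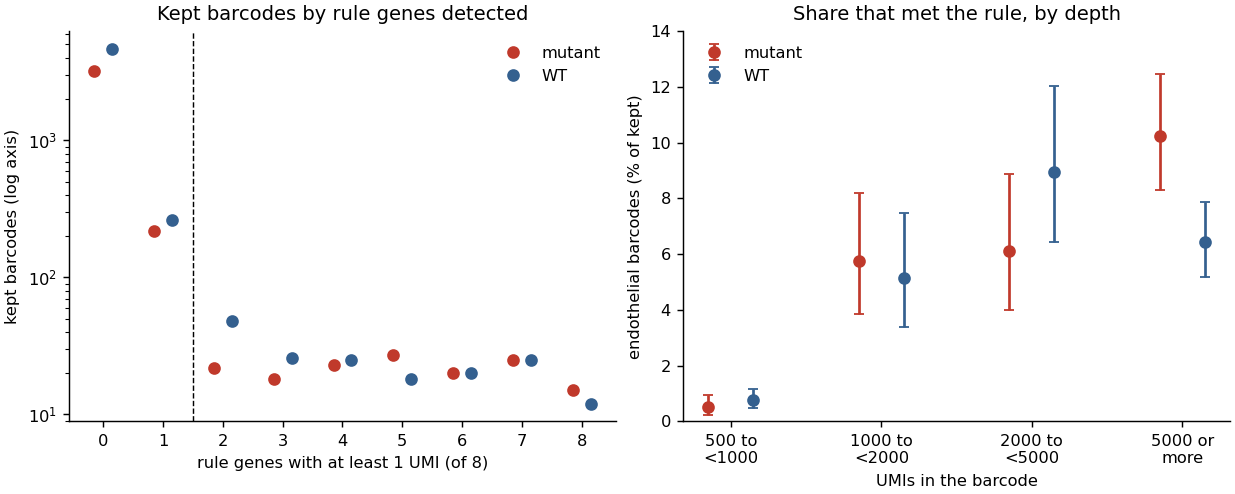
Left, kept barcodes (log axis) by the number of the 8 rule genes with at least 1 UMI, with the rule's threshold as a dashed line. Right, the share of kept barcodes that met the rule by UMI depth with exact 95% intervals of counting error. The share was under 1% in the shallowest bin of both libraries, and in the deepest it was 10.2% in the mutant and 6.43% in WT.

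RNA of other cells was present in the endothelial barcodes at unequal amounts in the 2 libraries. Globin and other red blood cell genes took a median of 0.729% of the UMIs in mutant endothelial barcodes and 1.56% in WT ones, against 14.4% and 22.1% in the other kept barcodes of mutant and WT. Pituitary hormone genes took a median of 0.0617% in the mutant and 0.234% in WT. At least 10% of UMIs came from one of these lists in 6 mutant and 24 WT endothelial barcodes. ptprc, the pan-leukocyte phosphatase CD45, was at 12.6 CPM (UMIs per 1000000 UMIs of the summed endothelial barcodes) in the mutant and 11.9 CPM in WT. It was at 1050.0 and 951 CPM in other barcodes with leukocyte genes, a class that ptprc helped to set, so that contrast is a description. In the summed endothelial barcodes, hormone genes were at 3083 CPM in the mutant and 27054 CPM in WT. Red blood genes were at 10101 and 30098 CPM in these sums. For hormone genes the sums were further apart than the medians, and 1 WT barcode alone held 26492 UMIs of gh1, growth hormone. Some lists were higher in the mutant sums instead. Neuron genes were at 1342 CPM in the mutant and 69.5 CPM in WT, and glia and pituicyte genes at 2952 and 1363 CPM. Collagen and fibroblast genes were at 823 CPM in the mutant and 523 CPM in WT. The part of single deep barcodes in these sums was not tested. Doublets were not removed, because the doublet caller Scrublet marked 0 barcodes by its own threshold.

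Among the rule genes, kdrl, a VEGF receptor, was the most widely seen. It had 597 CPM (561 to 635) in 126 of 150 mutant endothelial barcodes and 698 CPM (652 to 745) in 132 of 174 WT ones. cdh5, the junction protein VE-cadherin, had 561 CPM in the mutant and 586 CPM in WT. flt1, a VEGF receptor that can act as a decoy, had 401 CPM in the mutant and 371 CPM in WT. These 3 genes were seen in 67.2% to 84.0% of endothelial barcodes of either library. The diaphragm genes were found in fewer barcodes. plvapa had 367 CPM in 71 mutant barcodes and 345 CPM in 76 WT barcodes, and plvapb 240.3 CPM in 74 mutant and 183 CPM in 66 WT barcodes. aqp8a.1, which encodes an aquaporin, was seen in the smallest share in the mutant, 44.7%, but at 712 CPM there and 576 CPM in 45.4% of WT barcodes. etsrp, an ETS factor that specifies endothelium in the zebrafish embryo, had 528 CPM (494 to 564) in the mutant and 297 CPM (268 to 329) in WT, the widest gap between libraries among the 8. Its mutant over WT log2 ratio was 0.83, and between 0.19 and 1.14 in the alternatives tried. The lowest value was in the barcodes that met none of the marker rules given below. egfl7, a secreted matrix protein of vessels, had 221 CPM in the mutant and 198 CPM in WT. Outside the endothelial barcodes the 8 genes lay between 0.716 and 8.46 CPM.

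Genes that the rule did not use were then compared between endothelial and all other kept barcodes of each library. A gene was tested if it had at least 20 UMIs over the endothelial barcodes. Of 9524 genes, 13.8% were at least 2-fold higher and 6.99% at least 2-fold lower in both libraries. In a list of 38 other endothelial genes, 33 could be tested, and 30 of these were at least 2-fold higher. The median log2 ratio of the 33 (the lower of the 2 libraries) was 4.81, against -0.29 over all genes tested. This threshold left out genes with few UMIs in endothelial barcodes, in the list and among all genes. The count of 30 thus does not cover them and is not a full check of the label. ptprb, the phosphatase VE-PTP, had 484 CPM in mutant and 550.0 CPM in WT endothelial barcodes, against 11.4 and 11.6 CPM in other barcodes. podxl, a sialomucin of the luminal surface, had 467 CPM in the mutant and 468 CPM in WT, and tie1, an orphan receptor of the Tie pathway, 164 CPM and 177 CPM in mutant and WT. The genes that did not reach 2-fold in both libraries were lmo2, calcrla and tal1. Of the tested genes of the red blood and hormone lists (8 each), all 16 were at least 2-fold lower in endothelial barcodes of both libraries, and of 6 tested leukocyte genes 3 were lower and 0 higher. The other barcodes included the red blood class (1122 mutant and 2690 WT) and the hormone class (221 and 433). Lower values of these lists are thus a description and do not check the endothelial label. Some familiar markers were almost without UMIs. pecam1a had 0 UMIs in every kept barcode. A count of 0 was taken to allow up to 3 UMIs, an approximate limit and not an exact interval. This is 1.79 CPM in mutant and 2.37 CPM in WT endothelial barcodes. erg, an ETS factor, had 1 UMI in the mutant and 1 in WT. After each barcode was thinned to 1000 UMIs, at least 1 UMI of this list was seen in 138 of 141 mutant (97.9%) and 139 of 153 WT (90.8%) endothelial barcodes, against 29.5% of 1616 mutant and 25.7% of 2155 WT other barcodes. Unthinned, the shares were 98.0% and 96.0% in endothelial barcodes of mutant and WT, and 52.2% and 50.3% in the other barcodes.

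**Figure D2:**
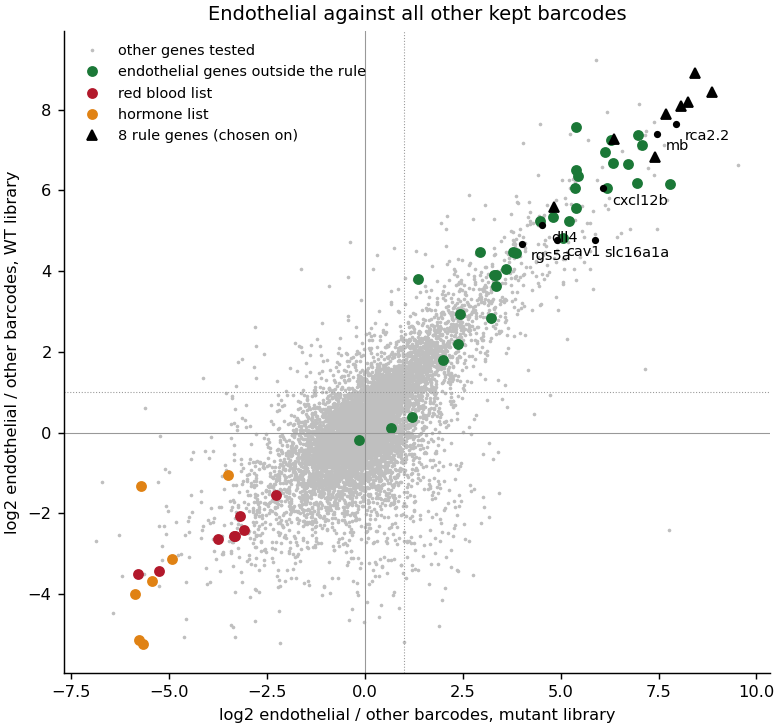
Each point is a gene, placed by its log2 ratio of endothelial to other kept barcodes in the mutant library (x) and in the WT library (y); dotted lines mark 2-fold. The 8 rule genes (triangles) and the other endothelial genes (green) lie at the upper right, with 30 of 33 past 2-fold in both libraries, and the red blood and hormone lists at the lower left.

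The 20 genes with the largest ratios over other barcodes, with the 8 rule genes left out, ranked by the lower ratio of the libraries, were led by rca2.2, named for the regulators of complement activation. It had 87.3 CPM in the mutant (57 barcodes) and 105 CPM in WT (47 barcodes), against 0.355 and 0.525 CPM in other barcodes, log2 ratios of 7.94 and 7.65. Next was mb, the oxygen-binding protein myoglobin, which was also the most abundant of them. It had 5587 CPM in 81 mutant barcodes and 3116 CPM in 101 WT barcodes, against 32.0 and 18.5 CPM in the other barcodes of mutant and WT. mb was far from even among endothelial barcodes, with a median of 0.957 and an upper quartile of 110 UMIs per 10000 in the mutant, and 10.8 and 55.9 in WT. BCL6B, a transcriptional repressor, had 224 CPM in the mutant and 158 CPM in WT. rbp2a, a cellular retinol-binding protein, had 232 CPM in the mutant and 367 CPM in WT. Known vascular genes made up much of the rest. They were fgd5a, an exchange factor for Cdc42, adgrl4, an adhesion receptor, rasip1, needed for vessel lumens in mice, tie1, angpt2a, a ligand of the Tie2 receptor, kdr, a VEGF receptor gene beside kdrl, podxl and myct1a. The others were ncam3, notchl, hbl2, si:dkey-165a24.9, another gene with a clone name and 3 listings known only by identifier, of which ENSDARG00000102972 was the highest. The log2 ratios of all 20 lay at or above 6.18 in both libraries.

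Genes of caveolae, the membrane pits that fill capillary endothelium, were high. Of 8 tested genes in the list of fenestration and caveolae genes, 7 were at least 2-fold higher in both libraries (median 2.93). cavin2b, a caveolar coat protein, had 1446 CPM in the mutant and 949 CPM in WT, against 88.1 and 63.9 CPM in the other barcodes. cav1, the main caveolin, had 1051 CPM in the mutant and 656 CPM in WT, against 35.2 and 24.1. Mutant over WT log2 ratios were 0.61 for cavin2b and 0.68 for cav1, short of 2-fold, and 0.46 and 0.55 in the other barcodes. The exception to the 7 was nrp1a, a co-receptor for VEGF, at 118 CPM in the mutant and 79.8 CPM in WT.

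Genes of the brain barrier were found in part. Of 14 tested, 8 were at least 2-fold higher in endothelial barcodes of both libraries and 1 lower (median 1.32). slc16a1a, a monocarboxylate transporter, was the highest, with 972 CPM in the mutant and 578 CPM in WT, against 16.4 and 21.3 CPM in other barcodes. SLC2A1 (capitals as in the files), the glucose transporter of barrier vessels, had 184 CPM in the mutant and 126 CPM in WT. mfsd2ab, a lipid transporter of the same family as the barrier gene Mfsd2a of mice, had 88.5 CPM in the mutant and 114 CPM in WT. cldn5a, a tight junction claudin, had 44.2 and 42.7 CPM in mutant and WT and was seen in 32 mutant and 19 WT barcodes. abcb4, an ATP-driven efflux transporter, had 47.8 CPM in the mutant and 34.0 CPM in WT. The listings cldn5b and slc2a1a had 0 UMIs in endothelial barcodes, and mfsd2aa had 3 UMIs in the mutant and 1 in WT.

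The barrier list was also seen in barcodes that held the diaphragm genes. plvapa and plvapb are among the genes that chose the endothelial barcodes, so barcodes without them had entered through the other rule genes, and values on either side of this split are a description. plvapa or plvapb was seen in 104 of 150 mutant and 97 of 174 WT endothelial barcodes. Of these, 94 mutant (90.4%) and 89 WT (91.8%) barcodes also held a UMI of the barrier list, as did 95.7% of mutant and 64.9% of WT endothelial barcodes without plvapa or plvapb. In the other kept barcodes the barrier list was seen in 39.1% in the mutant and 38.1% in WT. Barcodes were then thinned to 1000 UMIs. Among those that still held plvapa or plvapb, 43 of 57 mutant (75.4%, 62.2% to 85.9%) and 35 of 55 WT (63.6%, 49.6% to 76.2%) barcodes held a barrier gene. So did 56 of 84 mutant (66.7%) and 57 of 98 WT (58.2%) barcodes in which no such UMI remained. Before thinning only 46 mutant and 77 WT barcodes lacked both genes. The thinned side without them therefore includes barcodes that lost these UMIs by thinning, and the thinned values do not separate barcodes that lack plvapa and plvapb. The background in thinned other barcodes was 28.5% in the mutant and 28.4% in WT. In these thinned counts slc16a1a was at 1123 CPM with and 1143 CPM without a plvapa or plvapb UMI in the mutant, a log2 ratio of -0.03 (-0.51 to 0.45), and at 727 and 612 CPM in WT, a log2 ratio of 0.25 (-0.37 to 0.85). Unthinned, these log2 ratios were 1.32 in the mutant and 0.98 in WT. In thinned counts the rule genes cdh5 and kdrl were higher on the side with plvapa or plvapb. Their log2 ratios were 1.45 in the mutant and 1.06 in WT for cdh5 and 0.98 and 1.14 for kdrl. Other endothelial genes did not all follow. aqp8a.1, also a rule gene, was at -0.64 in the mutant and 0.64 in WT. Outside the rule, fgd5a was at -0.28 (-0.99 to 0.40) in the mutant and 0.54 (-0.19 to 1.26) in WT. podxl was at 0.70 in the mutant and 0.28 in WT, and tie1 at 1.02 and 0.83.

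Arterial and venous genes were both present. dll4, the Notch ligand of arterial and tip cells, had 425 CPM in 98 mutant barcodes and 394 CPM in 98 WT barcodes, against 18.5 and 11.2 CPM in other barcodes. notch1b, its receptor, had 160.2 CPM in the mutant and 121 CPM in WT. Of the arterial list, 4 of 6 tested genes were at least 2-fold higher in both libraries (median 2.04). efnb2a, the arterial ephrin, had log2 ratios of 0.91 in the mutant and 1.48 in WT over other barcodes, so it passed 2-fold in the WT library alone. In the venous and lymphatic list, 11 of 15 passed 2-fold in both libraries (median 2.76). aplnra, an apelin receptor, had 74.7 CPM in the mutant and 97.2 CPM in WT, ephb4a, the venous partner of the ephrin, 80.7 and 92.4, and nr2f2, the venous regulator COUP-TFII, 48.4 and 49.8 CPM in mutant and WT.

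**Figure D3:**
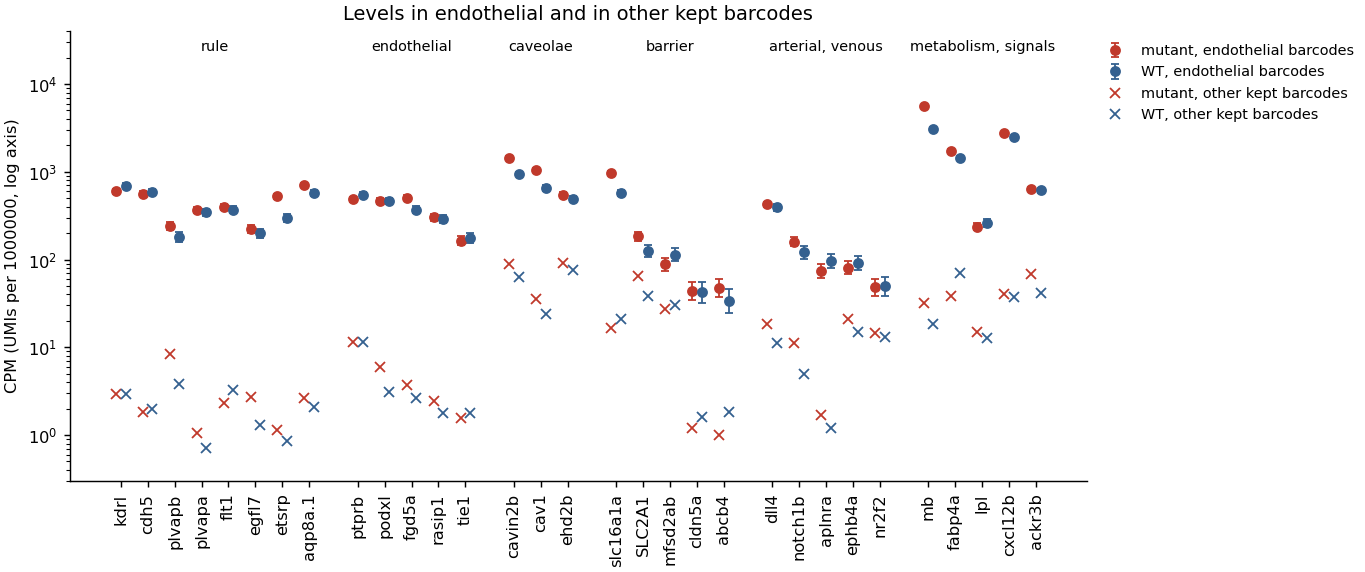
CPM (log axis) of named genes by role in endothelial barcodes (circles, exact Poisson 95% intervals of counting error, often smaller than the symbol) and in all other kept barcodes (crosses), mutant left of WT. mb was at 5587 CPM in mutant and 3116 CPM in WT endothelial barcodes, and each gene's circles lie above its crosses.

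In the VEGF, Tie and apelin pathways, 14 of 21 tested genes were at least 2-fold higher than in other barcodes of both libraries (median 1.58). pdgfbb and pdgfba, which encode the growth factor that recruits mural cells, had 218 and 179.9 CPM in the mutant and 235 and 237 CPM in WT. esm1, a proteoglycan of sprouting endothelium, had 139.9 CPM in 28 mutant and 116 CPM in 34 WT barcodes. vegfaa, the main VEGF ligand, was itself at 234 CPM in mutant and 162 CPM in WT endothelial barcodes. Among like classes of barcodes it was at 147 CPM in the mutant and 240.0 CPM in WT barcodes with collagen and fibroblast genes, and at 27.6 CPM in the mutant and 40.6 CPM in WT hormone-producing barcodes. The chemokine gene cxcl12b had 2786 CPM in 62 mutant and 2464 CPM in 87 WT barcodes, against 40.9 and 37.2 CPM in the other barcodes, while its paralog cxcl12a had 807 and 294 CPM in endothelial barcodes of mutant and WT and 1486 and 1315 CPM in the mesenchymal class. ackr3b, a scavenger receptor for Cxcl12, had 636 CPM in the mutant and 614 CPM in WT.

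BMP and TGF-beta genes passed 2-fold in both libraries in 9 of 19 tested cases (median 0.96), among them acvrl1, the endothelial receptor ALK1, with 234 CPM in the mutant and 225 CPM in WT, and its target id1 with 491 and 388. Notch pathway genes did so in 9 of 15 cases (median 1.47). Basement membrane genes did so in 10 of 20 (median 1.09), among them COL4A1 with 385 CPM in the mutant and 298 CPM in WT, while sparc, a matrix protein, had 411 CPM in the mutant and 464 CPM in WT, against 590.3 and 265 CPM in the other barcodes of mutant and WT, and did not pass 2-fold in either. Of 14 tested junction genes, 5 passed 2-fold in both libraries (median 0.54), with esama, an endothelial adhesion molecule, at 373 CPM in the mutant and 418 CPM in WT. Of 8 tested lipid genes, 4 passed 2-fold in both libraries (median 0.58), and some stood out by level. fabp4a, a fatty acid binding protein of capillaries, had 1749 CPM in the mutant and 1441 CPM in WT, and lpl, lipoprotein lipase, 238 and 262 CPM. These lists share some genes, and their counts are therefore not independent.

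The shear and immediate early list was nearly uniform, with 16 of 17 tested genes at least 2-fold higher in endothelial barcodes of both libraries (median 1.74). klf2b, a flow-responsive factor, had 401 CPM in the mutant and 352 CPM in WT, log2 3.70 and 3.96 above other barcodes. fosab, an AP-1 subunit induced within minutes of stimulation, was at 12228 CPM in mutant and 8049 CPM in WT endothelial barcodes, against 3656 and 2012 CPM in other barcodes. egr1 and junbb, 2 other immediate early genes, were at least 2-fold higher in mutant than in WT endothelial barcodes, with log2 ratios of 1.16 and 1.14. In the other barcodes these ratios were 1.24 and 1.13, so the gap was present across the library. Neither kept 2-fold with at least 3 rule genes (0.73 for egr1 and 0.86 for junbb), by the mean over barcodes (0.60 and 0.80) or with barcodes of 2000 to under 10000 UMIs (0.19 and 0.39). Mitochondrial genes took a median of 3.06% of UMIs in mutant and 3.54% in WT endothelial barcodes, against 1.43% and 1.41% in the other barcodes.

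Markers of other cell types were carried by many endothelial barcodes, and groups were set by them after the values had been seen. Mural cells wrap capillaries and share their basement membrane. Of 14 tested genes in the mural list, 9 were at least 2-fold higher in endothelial barcodes of both libraries (median 2.02). rgs5a, a pericyte regulator of G-protein signaling, had 2366 CPM in 88 mutant and 3075 CPM in 121 WT barcodes, and pdgfrb, the receptor for the endothelial PDGF, 373 CPM in 64 mutant and 294 CPM in 71 WT barcodes. Each barcode was put in the first group that it met. A share of at least 10% of UMIs from hormone or red blood genes put 6 mutant and 24 WT barcodes aside. UMIs in 2 or more of 5 genes (MRC1, lyve1a, lyve1b, stab2 and prox1a) gave a lymphatic-marker group of 12 mutant and 6 WT barcodes. The mesenchymal rule, at least 2 UMIs in each of 2 or more collagen and fibroblast genes, took 19 mutant and 16 WT barcodes. Epithelial markers took 3 mutant and 7 WT barcodes, and UMIs in 3 or more mural genes took 54 mutant and 68 WT barcodes. This left 56 mutant (37.3%) and 53 WT (30.5%) barcodes with none of these rules met. Counted without regard to this order, 77 mutant and 96 WT endothelial barcodes held UMIs in 3 or more mural genes. Some barcodes of the earlier groups thus carried mural genes as well.

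Depth differed between these groups, with medians of 2509.5 mutant and 3520 WT UMIs in the remaining group and 9379.5 and 5136.5 UMIs in the mural-marker group of mutant and WT, and its part in the grouping was not tested. In the remaining group kdrl was at 983 CPM in the mutant and 1358 CPM in WT, and pdgfrb at 72.8 and 8.33. In the mural-marker group kdrl was at 769.9 and 739 CPM in mutant and WT, and pdgfrb at 390.1 and 492. pdgfrb is among the genes that set the mural-marker group, so its contrast with the remaining group is a description. mb was high in both of these groups, with 13032 CPM in the mutant and 4877 CPM in WT in the remaining group and 8962 and 5518 CPM in the mural-marker group. In the lymphatic-marker group it was at 6.94 CPM in the mutant and 1519.7 CPM in WT. slc16a1a likewise had 2289 CPM in the mutant and 737 CPM in WT in the remaining group, against 0 and 184 CPM in the lymphatic-marker group. The lymphatic-marker group carried stab2, a scavenger receptor, at 302 CPM in the mutant and 296 CPM in WT (a rule gene of this group), and flt4, the receptor for VEGF-C, at 135 and 581 CPM. dab2, an endocytic adaptor that no rule used, was at 55.5 CPM in the mutant and 61.2 CPM in WT in this group, and had 0 UMIs in the remaining group of either library. The lymphatic-marker barcodes held a median of 2 of the 8 endothelial rule genes in the mutant and 4 in WT. cdh5 was at 55.5 CPM in the mutant and 265 CPM in WT among them, against 796 and 841 CPM in the remaining group. Whether the lymphatic-marker barcodes are vessel endothelium was not tested.

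**Figure D4:**
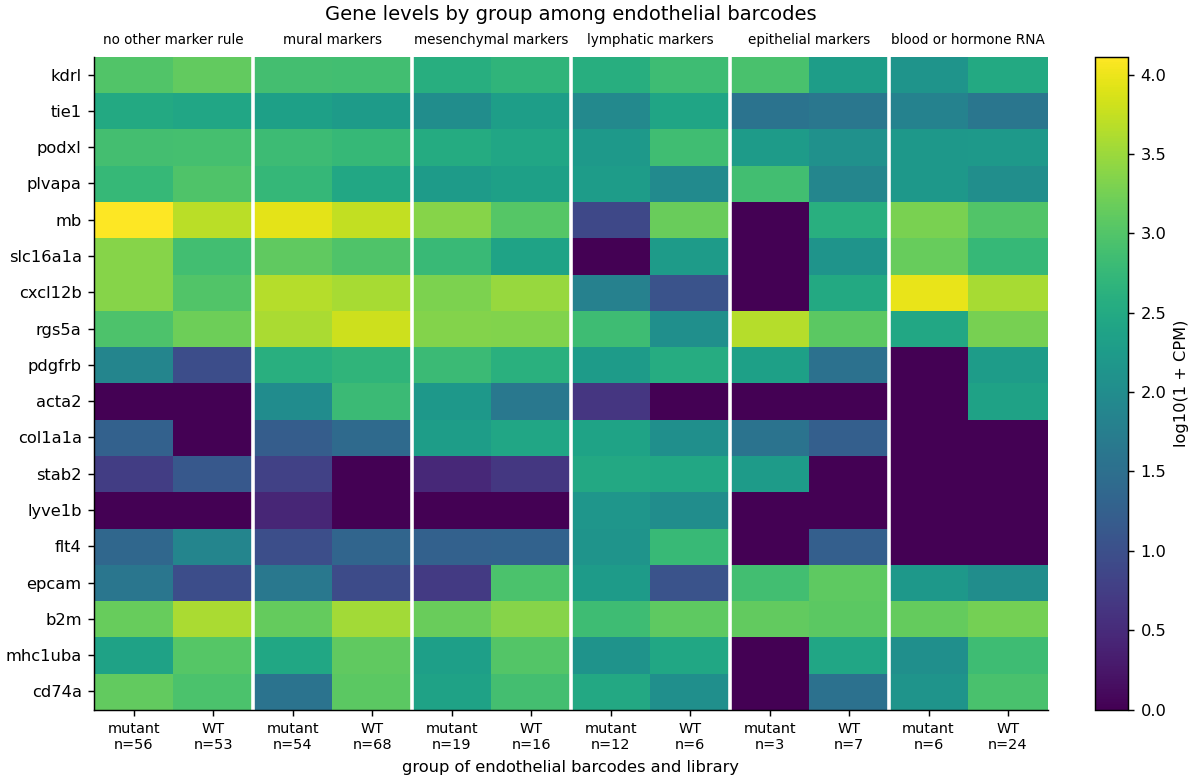
Levels as log10(1 + CPM) of 18 genes (rows) in 6 groups of endothelial barcodes, each with the mutant column left of the WT column and its number of barcodes. Groups were set by marker genes, among them pdgfrb, acta2, col1a1a, stab2, lyve1b and epcam. kdrl, a rule gene that helped choose the barcodes, lies between 133 and 1358 CPM in the groups. b2m and mhc1uba are lower in the mutant than in WT in each group except for b2m in the epithelial-marker group, with 1325 CPM in the mutant and 1214 CPM in WT.

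Mutant and WT endothelial barcodes were then compared gene by gene, over 4984 genes with at least 50 UMIs and no more than 20% of them in 1 barcode. At least 2-fold higher in the mutant were 169 genes (3.39%), and at least 2-fold lower were 212 genes (4.25%). The interval left out 0 for all of them. The thresholds of 50 UMIs and 2-fold nearly ensure this, so it is no further check. With 1 library per genotype it also holds for counting error alone. The median log2 ratio over all genes tested was close to 0. Endothelial genes as a group did not separate the libraries. Of 29 tested genes in the endothelial list outside the rule, 2 were higher and 1 lower, with a median of 0.03. The 1 gene past 2-fold in the barrier list was lsr, a receptor of tricellular junctions, at 7.77 CPM in the mutant and 39.5 CPM in WT (-2.35), which turned direction in the remaining group. Caveolar, arterial, BMP and junction lists had 0 genes past 2-fold in either direction, of 8, 5, 14 and 11 tested. With 3.39% and 4.25% of all genes called, lists this short may hold none, so these counts do not set them apart. Their median log2 ratios were 0.58, 0.17, 0.06 and -0.11, the caveolar list being the furthest from 0 of these lists.

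Genes of antigen presentation were lower in mutant endothelial barcodes. In the list of leukocyte adhesion and antigen genes, 6 of 10 tested genes were at least 2-fold lower and 0 higher, with a median log2 ratio of -1.11. The 12 genes of the leukocyte list, which also holds cd74a and cd74b, summed to 509 CPM in mutant and 1218 CPM in WT endothelial barcodes, against 2033 and 1524 CPM in the other barcodes. Most of these UMIs were of cd74a and cd74b. lcp1, the leukocyte actin bundler L-plastin, was at 34.7 CPM in the mutant and 41.9 CPM in WT, ptprc was at 12.6 CPM in the mutant and 11.9 CPM in WT, and coro1a and lck had 0 UMIs in WT endothelial barcodes. After thinning, a UMI of the list was seen in 18.4% of mutant and 39.9% of WT endothelial barcodes (75 of 150 and 116 of 174 unthinned), against 31.6% of mutant and 22.6% of WT other barcodes. The rule for the leukocyte class was met by 33 mutant and 70 WT endothelial barcodes. b2m, the light chain of MHC class I, had 1299 CPM in 142 of 150 mutant barcodes and 2735 CPM in 164 of 174 WT barcodes, a log2 ratio of -1.07. Across single barcodes the b2m quartiles were 6.24, 12.8 and 19.1 UMIs per 10000 in the mutant and 12.6, 26.1 and 39.4 in WT, so the middle parts of both distributions overlapped and each quartile was lower in the mutant. mhc1uba, a class I heavy chain, had 216 CPM in the mutant and 942 CPM in WT, a log2 ratio of -2.13 (-2.30 to -1.96). mhc1zba, another class I gene, had 228 CPM in the mutant and 503 CPM in WT (-1.14, -1.33 to -0.96), and tapbp.1, for the peptide loading protein tapasin, 17.9 and 40.3 CPM (-1.17, -1.87 to -0.49). mhc1 genes have near-identical relatives in the zebrafish genome that differ between fish, so reads of one may have been counted for another, and this was not tested. These 4 genes kept their sign in every alternative tried, and mhc1uba also kept 2-fold. Without the barcodes that held a leukocyte gene other than cd74a and cd74b, an alternative chosen after seeing the data, b2m was at -0.78, tapbp.1 at -0.92, mhc1zba at -1.02 and mhc1uba at -1.73. mhc1zba was at -0.83 by the mean over barcodes.

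The difference in class I genes was not confined to endothelial barcodes. In the leukocyte class b2m was at 2901 CPM in the mutant and 4518 CPM in WT, and in the mesenchymal class at 721 and 1301. In hormone-producing barcodes it was at 824 CPM in the mutant and 782 CPM in WT. Summed over all other kept barcodes, the log2 ratio was -0.04 for b2m, 0.05 for mhc1zba and -1.06 for mhc1uba. The invariant chain genes cd74a and cd74b, of MHC class II, were also lower in mutant endothelial barcodes, with log2 ratios of -1.36 and -1.62. cd74a was seen in 33 of 150 mutant and 81 of 174 WT barcodes. In the remaining group cd74a was at 1342 CPM in the mutant and 875 CPM in WT, which turned its direction (log2 0.62). However, 1 mutant barcode alone held 282 cd74a UMIs, while no WT barcode held more than 123. The sum of the small remaining group rests largely on that mutant barcode, and the ratio without it was not tested. Without the barcodes that held any other leukocyte gene, the log2 ratios were -1.83 for cd74a and -0.99 for cd74b. sele, the E-selectin gene, had 221 CPM in 33 mutant and 461 CPM in 35 WT barcodes, and is not counted because over 20% of its UMIs lay in 1 barcode.

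**Figure D5:**
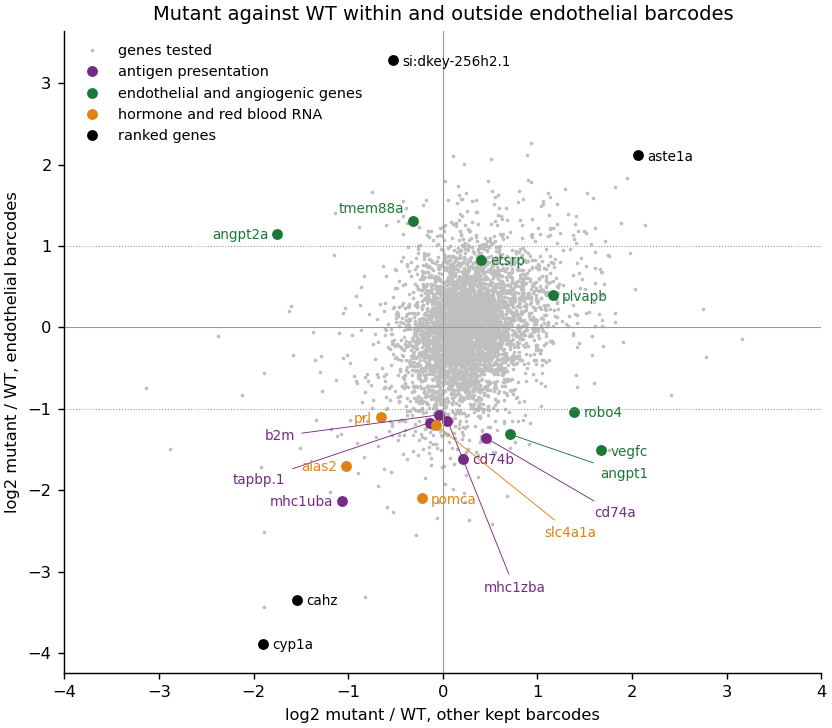
Log2 mutant over WT ratio of each gene in endothelial barcodes (y) against the same ratio in all other kept barcodes (x, shown between -4 and 4); dotted lines mark 2-fold. The antigen presentation genes (purple) lie between -1.07 and -2.13 on the y axis, and b2m and mhc1zba near 0 on the x axis.

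Single endothelial genes past 2-fold were few. tmem88a, which encodes a membrane protein of early vascular and blood development in zebrafish, had 110.0 CPM in 69 mutant and 44.2 CPM in 32 WT barcodes, a log2 ratio of 1.31 (0.87 to 1.77). calcrla, a receptor for adrenomedullin, had 74.7 CPM in the mutant and 23.7 CPM in WT (1.66), and 1.11 in other barcodes. angpt2a had 52.6 CPM in 23 mutant and 23.7 CPM in 19 WT barcodes, a log2 ratio of 1.15 (0.54 to 1.80). Lower in the mutant was robo4, a guidance receptor that stabilizes vessels in mice, with 57.4 CPM in 44 mutant and 118 CPM in 64 WT barcodes (-1.04, -1.42 to -0.66). In other barcodes its ratio was 1.39, with 109 CPM in the mutant and 61.3 CPM in WT in the leukocyte class. angpt1, the Tie2 agonist that mural cells secrete, had 24.5 CPM in the mutant and 60.8 CPM in WT (-1.31). vegfc, the lymphatic growth factor, had 15.5 CPM in 8 mutant and 44.2 CPM in 13 WT barcodes (-1.51). lyve1b, a lymphatic hyaluronan receptor, had 25.1 CPM in 8 mutant and 7.90 CPM in 2 WT barcodes (1.67). hey1, a Notch target, and vwa1, a matrix protein, were lower in the mutant, with log2 ratios of -1.23 and -1.15. Of these genes, tmem88a stayed between 0.95 and 2.14 and robo4 between -1.23 and -0.89 in every alternative tried. Both fell short of 2-fold at their weakest, tmem88a in the remaining group and robo4 with at least 3 rule genes. vegfc and hey1 turned direction when only barcodes between 2000 and 10000 UMIs were used (0.55 and 0.035), and lyve1b did so with at least 3 rule genes (-0.59). calcrla was at 0.62 with at least 3 rule genes and at 0.55 with barcodes of 2000 to under 10000 UMIs. vwa1 was at -0.55 by the mean over barcodes and at -0.37 without the barcodes with leukocyte genes. angpt2a was at 0.33 in the remaining group and angpt1 at -0.82 without the barcodes with leukocyte genes. All of these values were short of 2-fold.

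Smooth muscle genes differed as well. acta2, smooth muscle actin, had 82.5 CPM in 14 mutant and 235 CPM in 33 WT barcodes, and tagln, transgelin, 61.6 CPM in 26 mutant and 183 CPM in 45 WT barcodes, with log2 ratios of -1.51 and -1.57. In the other barcodes these ratios were 1.76 and 0.37. Of 12 tested mural genes these 2 were lower and 0 higher. pdgfrb (0.34) and rgs5a (-0.38) did not pass 2-fold. In sums of this kind, fewer barcodes of a type and less RNA per barcode cannot be told apart.

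The highest ratio of all was that of si:dkey-256h2.1, with 53.8 CPM in 33 mutant and 5.53 CPM in 4 WT barcodes, a log2 ratio of 3.28 (2.18 to 4.64) against -0.53 in other barcodes. It was followed by FADS6, of the fatty acid desaturase family, ddb2, a sensor of ultraviolet DNA damage, aste1a, dipk1aa, klc1a, a kinesin light chain, sppl2, an intramembrane protease, and eef2k, the kinase of elongation factor 2, with log2 ratios between 1.83 and 2.27. FADS6, dipk1aa and klc1a turned direction under 1 alternative each, and ddb2 (0.71 in the remaining group) did not keep 2-fold. Nor did eef2k, at 0.95 by the mean over barcodes and 0.74 without the barcodes with leukocyte genes. aste1a and eef2k were higher in the other mutant barcodes too (2.06 and 1.94). The lowest ratio was that of cyp1a, a monooxygenase induced through the aryl hydrocarbon receptor, with 7.17 CPM in 4 mutant and 106 CPM in 25 WT barcodes (-3.88, -4.87 to -3.03). Its ratio was -1.90 in other barcodes. cxcl14, a chemokine gene, fgfr1a, a fibroblast growth factor receptor, rassf7b and si:ch211-11p18.6 followed at -3.31, -2.55, -2.42 and -2.37, and ENSDARG00000103903 at -3.43. By the mean over barcodes cxcl14 was at -0.65 and fgfr1a at -0.69, short of 2-fold, and cxcl14 was at -0.45 with barcodes of 2000 to under 10000 UMIs. The last 2 of these 8 were cahz, a carbonic anhydrase of red blood cells, and si:ch211-103n10.5, at -3.35 and -2.51, both at over 1000 CPM in the red blood class. Of 6 tested red blood genes 5 were lower in mutant endothelial barcodes and of 2 tested hormone genes both, among them alas2, the first enzyme of heme synthesis in red cells, at -1.70 (-1.02 in other barcodes), and prl, prolactin, at -1.10 (-0.66 in other barcodes). The part of this RNA in the other differences was not tested. Without the barcodes with at least 10% of such RNA, 143 genes were higher and 220 lower.

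Of the cholecystokinin system, endothelial barcodes held almost nothing. ccka, the only ligand gene matched in the files, had 0 UMIs in the mutant and 1 in WT endothelial barcodes, and 14 UMIs in the other mutant and 143 UMIs in the other WT barcodes. Which of the deleted genes it is was not settled from the labels, so it gives a limited check of the genotype. cckbra had 1 UMI in the mutant and 0 in WT, the receptor listed as CCKBR 1 in the mutant and 2 in WT, and CCKAR 0 in either library. By the approximate limit of 3 UMIs, a count of 0 allows up to 1.79 CPM in the mutant and 2.37 CPM in WT. Low receptor levels were thus not detectable at this depth. The other kept barcodes held 17.6 CPM of cckbra in the mutant and 6.06 CPM in WT.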

How the data were processed

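Dissociated pituitary cells were captured in droplets and sequenced as 1 library of CCK1/2-KO and 1 of WT males. The authors deposited a matrix of UMI counts per gene and barcode for each library, not normalized. The submitters' processing notes name GRCz11, Cell Ranger and Seurat. Counts were read with scipy 1.17.1 and pandas 2.3.3 under Python 3.11.15, and 0 columns of other samples were left out.

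The members, gene lists and named genes were chosen with earlier results of these data known. Named were the 8 rule genes, the most abundant and the called genes of each list, the 20 leading genes over other barcodes (seen in at least 5 endothelial barcodes of each library), and the 8 highest and 8 lowest mutant over WT ratios. Any further gene, and the groups by marker genes, were picked with the values in view. Counts of summed barcodes were scaled to 1000000 UMIs. Ratios have exact conditional binomial intervals, levels exact Poisson and shares Clopper-Pearson intervals, all for counting error only. Called means at least 2-fold. For shares across depths, barcodes were thinned to 1000 UMIs and shallower ones left out. The scripts were tested on simulated data. Scrublet was run through scanpy 1.11.5. Figures were drawn with matplotlib 3.10.9.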

Additional observations from a re-analysis of the deposited data

How the results depend on the processing

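No paired analysis was possible because each genotype had 1 library, and leaving out a replicate was not possible either. Of 319 values of 32 named genes over other barcodes, 319 kept their sign and 317 stayed past 2-fold. Of 517 mutant over WT values of 44 genes, 508 kept their sign, and 390 of 445 values of the 38 genes past 2-fold stayed past it. In the remaining group alone, a choice made after seeing the data, the log2 ratio turned to -0.46 for dipk1aa, -0.87 for ncam3, 0.62 for cd74a, -0.19 for klc1a and 1.13 for lsr. With barcodes of 2000 to under 10000 UMIs, likewise chosen after seeing the data, it turned to 0.55 for vegfc, -0.036 for FADS6 and 0.035 for hey1, and with at least 3 rule genes to -0.59 for lyve1b. The cause was not tested.

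The share of kept barcodes was 9.44% in the mutant and 7.48% in WT with at least 500 genes, and 5.75% and 4.33% after thinning to 1000 UMIs. With at least 3 rule genes it was 3.60% in the mutant and 2.49% in WT. The number of genes tested differed between settings. Genes higher in the mutant numbered 61 of 1082 tested in the remaining group and 57 of 1817 at 2000 to under 10000 UMIs. They numbered 328 of 4984 by the mean over barcodes and 419 of 7476 with at least 20 UMIs. With no limit on the share in 1 barcode they numbered 621 of 5891, against 169 of 4984 in the main setting. Genes lower in the mutant numbered 67, 94, 393 and 509 in the first 4 of these settings, among the same numbers tested. With no limit on the share in 1 barcode the lower genes numbered 314 of 5891, against 212 of 4984 in the main setting. Of the 169 higher and 212 lower genes, 7 and 12 were called again in the remaining group, where 1082 genes could be tested. At 2000 to under 10000 UMIs 15 and 17 were called again, and without the barcodes with leukocyte genes 44 and 72. With at least 3 rule genes, where 4377 genes were tested, the numbers were 71 and 99. By the mean over barcodes, with all 4984 tested, they were 94 and 117. More recurred without barcodes rich in hormone or red blood RNA (124 and 166) and with at least 500 genes (159 and 203). Genes higher in endothelial than other barcodes numbered 767 of 2580 tested in the remaining group. At 4-fold they numbered 532 of 9524, against 1319 of 9524 in the main setting. With totals that left out hormone, red blood and mitochondrial genes, 138 genes were higher and 259 lower in the mutant, against 169 and 212. Depth limits genes at a few UMIs.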

Other observations

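Of 16 tested receptors for pituitary and peripheral hormones, 0 were at least 2-fold higher in endothelial than in other barcodes of both libraries and 1 was lower, against 13.8% and 6.99% of all genes tested. Their median log2 ratio (the lower of the libraries) was -1.02, against -0.29 over all genes. nr3c1, the glucocorticoid receptor, had 90.2 CPM in 62 mutant and 80.6 CPM in 53 WT endothelial barcodes, against 179 and 188 CPM in other barcodes. thraa, a thyroid hormone receptor, had 49.6 CPM in the mutant and 41.9 CPM in WT. igf1ra, a receptor for insulin-like growth factor, had 68.7 CPM in the mutant and 162 CPM in WT (log2 -1.24), the 1 gene of the list past 2-fold between the libraries. It was at -0.43 by the mean over barcodes and at -0.98 with at least 3 rule genes, short of 2-fold.

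Simple keratins were abundant. krt8 had 2846 CPM in 140 mutant and 2732 CPM in 162 WT endothelial barcodes, against 811 and 669 CPM in other barcodes. krt18a.1, its usual partner, had 2293 CPM in the mutant and 2448 CPM in WT. In the list of glia and pituicyte genes, 3 of 7 tested genes were at least 2-fold higher in both libraries. cyp19a1b, the aromatase of radial glia, had 360.4 CPM in 27 mutant barcodes and 601 CPM in 15 WT barcodes, against 30.3 and 266 CPM in other barcodes. Its log2 ratio over other barcodes (the lower of the libraries) was 1.17, and 0.68 at its weakest in the alternatives. It fell short of 2-fold when the barcodes with the highest Scrublet scores were left out, and with barcodes of 2000 to under 10000 UMIs. The source of this RNA was not tested. Cell cycle genes summed to 393 CPM in mutant and 286 CPM in WT endothelial barcodes, against 275 and 302 CPM in the other barcodes. pcna, of DNA replication, had 64.0 CPM in the mutant and 65.6 CPM in WT, and mki67, a proliferation marker, was seen in 4 mutant barcodes and 1 WT barcode.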
